A study of Homo sapiens with 9 samples.

Results

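The 10 genes described here were taken by name from the count table: the RNA sensors DDX58 (RIG-I, now also called RIGI), IFIH1 (MDA5) and EIF2AK2 (PKR), the oligoadenylate synthetases OAS1 and OAS3, the interferon-stimulated genes IFIT1, IFIT2 and IFIT3, the ubiquitin-like modifier ISG15 and the GTPase MX1. All 10 were among the 58734 genes of the table. They serve as a check for an innate response to the siRNA itself. The material was HEK293T, an embryonic kidney line of human origin with the SV40 large T antigen, in 3 groups of 3 RNA sequencing libraries made from poly-A RNA. The groups received a control siRNA, a SIN3A siRNA or a SIN3B siRNA, each as an Ambion Silencer Select siRNA at 10 nM for 36 h, carried into the cells with the lipid reagent Lipofectamine RNAiMAX. SIN3A and SIN3B are scaffolds of histone deacetylase complexes. The control cells had therefore also taken up a short double-stranded RNA and the lipid, and cells without siRNA were not analysed here. A response shared by all 3 groups cannot be seen in these comparisons, which set 1 siRNA against another. Nothing in the labels says that replicate libraries stem from different transfections, and p-values here describe library-to-library spread that could be purely technical.

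Cells detect foreign double-stranded RNA with the cytoplasmic helicases RIG-I and MDA5, which signal through the adaptor MAVS and the kinases TBK1 and IKKε to IRF3, and this leads to transcription of type I and type III interferons. Secreted interferon binds its receptors, and the JAK kinases then activate STAT proteins, which bind the interferon-stimulated response element in the promoters of many genes. Many of the sensors are themselves such target genes. PKR phosphorylates the translation factor eIF2α when it binds double-stranded RNA, and the oligoadenylate synthetases make the second messenger that switches on RNase L. A 5′-triphosphate is a known ligand of RIG-I, and chemically synthesised siRNAs usually lack one.

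The promoters show which of the 10 genes carry the letters of that element near the start of transcription. The element was searched as GAAANNGAAA on both strands, with overlapping matches allowed, in RefSeq promoter windows of 300 bases (250 before to 50 after the start, build GRCh38.p14). It was found in 1255 of 35116 windows (3.57%), or in 1195 of the 27305 genes that have a window (4.38%). Among the 9 members with a window it was found in 7 (77.8%). DDX58 and OAS1 had no match in their windows, which says only that these letters are not there, and IFIT2 was not searched. Of the other 103 genes with a window on a wider list of interferon and RNA-sensing genes, 44 (42.7%) held it. For each of the 7 members, the match closest to a start site is printed below with 10 bases on either side, read 5′ to 3′ along the gene, to show the letters of the element in each gene. Whether a factor binds them was not tested. The capitals mark the element or, where it lies on the other strand, its reverse complement.
ISG15, chr1:1013380-1013409, plus strand: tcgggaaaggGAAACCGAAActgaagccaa
EIF2AK2, chr2:37156967-37156996, minus strand: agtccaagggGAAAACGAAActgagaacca
IFIH1, chr2:162318686-162318715, minus strand: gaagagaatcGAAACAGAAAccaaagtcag
OAS3, chr12:112938452-112938481, plus strand: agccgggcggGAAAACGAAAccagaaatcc
IFIT1, chr10:89392510-89392539, plus strand: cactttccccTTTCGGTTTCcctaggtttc
IFIT3, chr10:89332468-89332497, plus strand: gttccatcagTTTCACTTTCctttcccctt
MX1, chr21:41420559-41420588, plus strand: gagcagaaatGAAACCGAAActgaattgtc

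**Figure D1:**
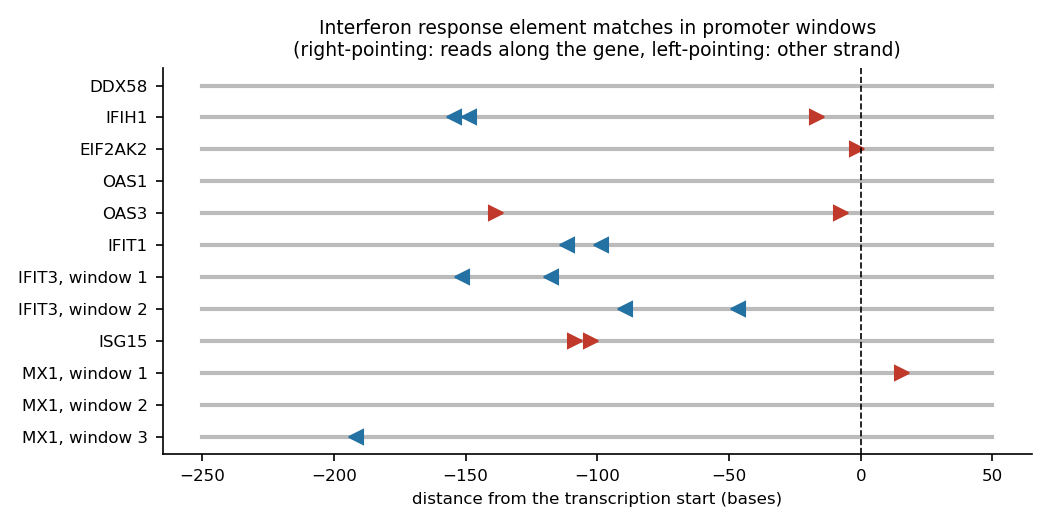
Position of each GAAANNGAAA match in the promoter windows of the members, in bases from the transcription start (dashed line); grey lines are the windows of 300 bases, and arrowheads point right where the element reads along the gene and left where it lies on the other strand. ISG15, IFIH1, IFIT1, IFIT3, OAS3 and MX1 hold more than 1 match, EIF2AK2 holds 1, and the windows of DDX58 and OAS1 hold none.

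The deposited counts summed to between 22542798 and 27084884 per library, and in every library at least 98% of the nonzero counts were multiples of 4. For the floor a step of 4 was therefore treated as the unit. A gene under 3 steps (12 counts, or 0.442 to 0.552 CPM) was taken as not measured. The tests and their count filter (minimum count 10, under this floor) used the counts as deposited, and division by 4 was an alternative. Levels are given as CPM, counts normalised to library size with TMM factors. The siRNAs lowered their targets: SIN3A went from 146 ± 4.01 to 47.3 ± 2.51 CPM (SD, n = 3) with its siRNA, and SIN3B from 96.2 ± 4.71 to 55.1 ± 3.63 CPM. Replicates of the SIN3A siRNA group lay further apart than those of the other groups, with pairwise chi-square values (per degree of freedom) between 3.53 and 7.37, against 1.57 to 1.86 for control and 1.42 to 1.98 for SIN3B siRNA. Of 9 markers of the HEK293T line 8 were above the floor, and PAX8 was not. Their summed level was 1370 to 1500 CPM in control, 1180 to 1430 CPM with SIN3A siRNA and 1090 to 1140 CPM with SIN3B siRNA. Of 8 blood cell markers, PTPRC and CD3E were at 0 in all libraries and 4 passed the floor in at least 1, with sums of 3.16 to 4.85, 3.76 to 8.83 and 3.54 to 6.08 CPM in the same order. Of 6 fibroblast markers, COL1A2 and DCN were at 0 and 3 passed the floor, with sums of 26.7 to 28.0, 26.3 to 37.6 and 25.3 to 29.9 CPM. The part of these shifts in the results below was not tested.

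In the fit of all 9 libraries, no member rose in either knockdown against control at an adjusted p under 0.05 (edgeR quasi-likelihood test, Benjamini-Hochberg over 16686 genes). With SIN3A siRNA 1 of the 7 tested members fell, the RIG-I gene DDX58, and 0 rose. Over all genes tested, 12.2% rose and 10.8% fell in that comparison. With SIN3B siRNA 0 of 7 rose and 0 fell, while 12.0% of all genes rose and 11.6% fell. Between the knockdowns, DDX58 and the PKR gene EIF2AK2 were lower with SIN3A siRNA than with SIN3B siRNA and 0 members were higher, while 14.5% of all genes were higher and 12.6% lower. At an unadjusted p under 0.05 the counts were 0 higher and 2 lower for SIN3A siRNA against control, 1 higher and 0 lower for SIN3B siRNA against control, and 0 higher and 3 lower between the knockdowns. DESeq2 gave 0 higher and 1 lower, 0 and 0, and 0 and 2 in the same order, and limma on log2 FPKM with a pseudocount of 1 gave 0 and 2, 0 and 1, and 0 and 2. The remaining 3 members, OAS1, IFIT2 and MX1, had too few counts to be tested. The fit of 9 libraries shares 1 estimate of spread, although SIN3A siRNA replicates lay further apart than the others. In edgeR fits of only the 6 libraries compared, EIF2AK2 rose with SIN3B siRNA (adjusted p 0.00325). DDX58 was not called with SIN3A siRNA there (0.0619). Calls over all genes went from 3836 to 3151 with SIN3A siRNA and from 3939 to 5358 with SIN3B siRNA. The part of the unequal spread in this was not tested. A bulk library cannot tell fewer cells that make a transcript from less of it in each cell.

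**Figure D2:**
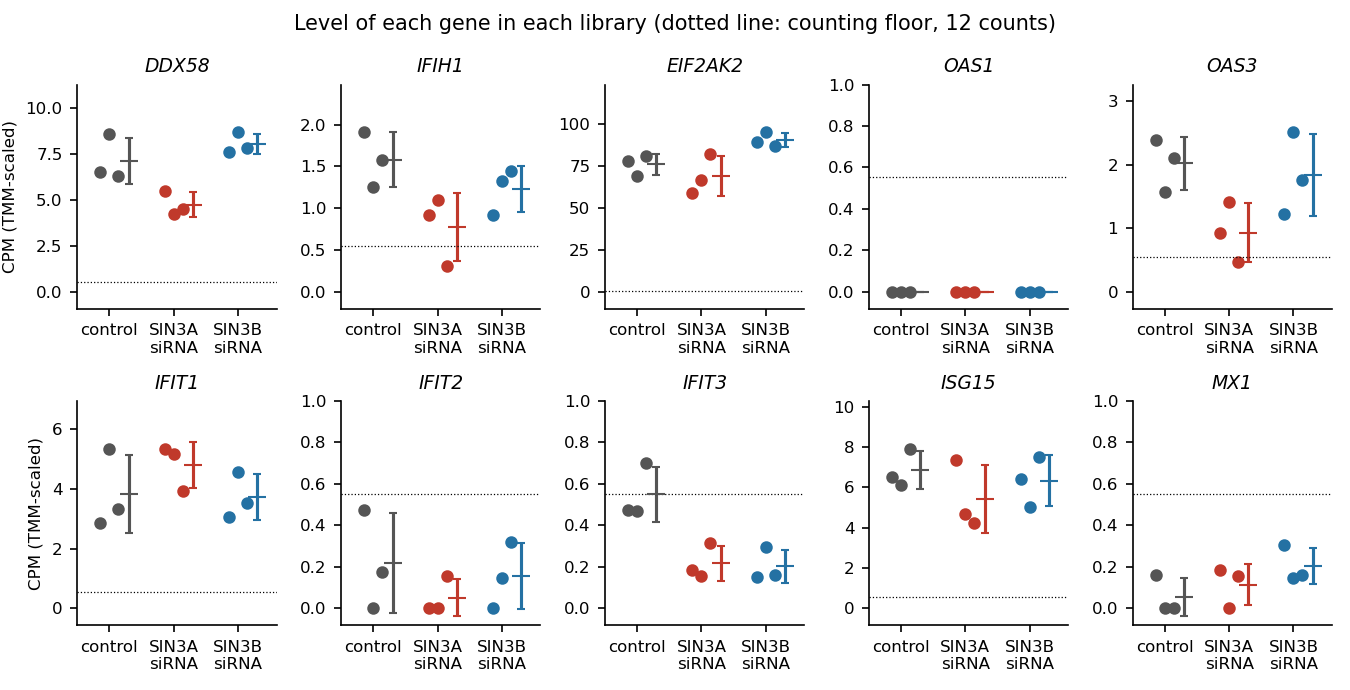
Level of each member in each of the 9 libraries as TMM-scaled CPM (linear axis, 1 point per library; the dash with whiskers is the mean ± SD of 3 libraries; the dotted line is the highest floor of any library, 0.552 CPM). DDX58 is lowest in the 3 SIN3A siRNA libraries, EIF2AK2 is highest in the 3 SIN3B siRNA libraries, and OAS1, IFIT2 and MX1 lie at or under the floor.

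DDX58 (ENSG00000107201, chromosome 9, 32455705 to 32526324, minus strand of GRCh38) encodes RIG-I, which binds short double-stranded RNA ends. Its level was 6.52, 8.61 and 6.32 CPM in control replicates 1, 2 and 3, 5.52, 4.23 and 4.54 CPM with SIN3A siRNA, and 7.65, 8.70 and 7.84 CPM with SIN3B siRNA. All 3 SIN3A siRNA libraries lay under every control and every SIN3B siRNA library, whereas the control and SIN3B siRNA libraries overlapped through control replicate 2. Against control, DDX58 fell by 0.59 on the log2 scale (SE 0.19, adjusted p 0.0314) with SIN3A siRNA, which left 0.664 of the control level (95% interval 0.503 to 0.877). With SIN3B siRNA its log2 fold change was 0.17 ± 0.19 (SE, adjusted p 0.575), with an interval of -0.22 to 0.56. The direct comparison gave a log2 difference of -0.76 ± 0.19 between the knockdowns (adjusted p 0.00506), and this call held in all 21 alternative analyses. The fall against control was less firm: without control replicate 2, the highest control library, it was -0.44 (adjusted p 0.164), without SIN3A siRNA replicate 2 -0.51 (0.0954) and without replicate 3 -0.56 (0.0769). A fit of only the 6 libraries compared gave -0.59 (0.0619).

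IFIH1 (ENSG00000115267, chromosome 2, 162267079 to 162318703, minus strand) encodes MDA5, which binds long double-stranded RNA. It was near the floor, at 1.91, 1.25 and 1.58 CPM in control, 0.920, 1.10 and 0.313 CPM with SIN3A siRNA, and 0.918, 1.33 and 1.44 CPM with SIN3B siRNA. The SIN3A siRNA libraries lay under the control libraries without overlap, and those of SIN3B siRNA overlapped with both groups. The deposited counts were 48, 32 and 36 in control and 20, 28 and 8 with SIN3A siRNA, the last under the floor. The fit did not separate the groups: the log2 fold change was -1.02 ± 0.50 (SE, adjusted p 0.156) with SIN3A siRNA and -0.36 ± 0.49 (adjusted p 0.667) with SIN3B siRNA. At this depth the interval with SIN3A siRNA, -2.07 to 0.03 on the log2 scale, includes 0. Leaving out SIN3A siRNA replicate 3, the lowest of the 9 libraries, gave -0.64 (adjusted p 0.399).

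EIF2AK2 (ENSG00000055332, chromosome 2, 37099210 to 37157065, minus strand) was the member with the most counts. Its level was 78.2, 69.0 and 80.6 CPM in control, 58.7, 66.4 and 82.0 CPM with SIN3A siRNA, and 89.4, 94.9 and 87.1 CPM with SIN3B siRNA. The 3 SIN3B siRNA libraries were the highest of the 9, and the SIN3A siRNA libraries spread over more than the control range, with replicate 3 above every control. Against control, the log2 fold change was 0.25 ± 0.10 (SE, adjusted p 0.0768) with SIN3B siRNA and -0.14 ± 0.10 (adjusted p 0.364) with SIN3A siRNA. Between the knockdowns it was 0.39 lower on the log2 scale with SIN3A siRNA (-0.39 ± 0.10, adjusted p 0.00641), a call that held in all 21 alternatives. The values against control turned on the settings. With SIN3B siRNA the gene passed the threshold in the fit of 6 libraries (adjusted p 0.00325), with no filter on low counts (0.0274), and without SIN3A siRNA replicate 1 (0.0176) or 3 (0.0183). Offsets for GC content and exon length turned the log2 fold change with SIN3B siRNA to -0.09 (adjusted p 0.511), and that with SIN3A siRNA became -0.33 (adjusted p 0.00348). Without SIN3A siRNA replicate 3 the value with SIN3A siRNA was -0.28 (0.0292), and without replicate 1 it was -0.02 (0.928). Between the knockdowns these 2 omissions gave -0.53 (9.75e-05) and -0.28 (0.025). EIF2AK2 shares 35 exonic bases with GPATCH11 and 401 with AC007899.1 on the opposite strand, and whether reads were counted by strand is not given in the sources used here.

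OAS3 (ENSG00000111331, chromosome 12, 112938352 to 112973249, plus strand) was the only oligoadenylate synthetase of the 2 members to be measured. It stood at 2.38, 1.57 and 2.11 CPM in control, 0.920, 1.41 and 0.470 CPM with SIN3A siRNA, and 1.22, 2.51 and 1.76 CPM with SIN3B siRNA. All SIN3A siRNA libraries were under all controls, and the SIN3B siRNA libraries spanned the control range on both sides. The deposited counts were low, at 60, 40 and 48 in control and 20, 36 and 12 with SIN3A siRNA, the last at the floor. The log2 fold change with SIN3A siRNA was -1.11 ± 0.44 (SE, adjusted p 0.0739, interval -2.02 to -0.20), and with SIN3B siRNA -0.14 ± 0.42 (adjusted p 0.863). The first of these passed the threshold with a stricter count filter (-1.12, adjusted p 0.0499) and without SIN3A siRNA replicate 2 (-1.54, adjusted p 0.0297), as did the difference between the knockdowns without that library (-1.41, adjusted p 0.0448). Without SIN3A siRNA replicate 3, the lowest library, the same values were smaller, at -0.78 (adjusted p 0.234) against control and -0.65 (0.308) between the knockdowns. OAS1 (ENSG00000089127, chromosome 12, 112906777 to 112933222, plus strand) had 0 counts in all 9 libraries. With the floor of 12 counts, this allows a level of up to 0.442 to 0.552 CPM depending on the library, for counting error only.

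IFIT1 binds foreign RNA by its end, and the IFIT genes are among the most strongly induced by interferon in most cell types. The 3 members lie together on the plus strand of chromosome 10. IFIT1 (ENSG00000185745, 89392546 to 89406486) was at 2.86, 5.32 and 3.34 CPM in control, 5.34, 5.17 and 3.92 CPM with SIN3A siRNA, and 3.06, 4.57 and 3.52 CPM with SIN3B siRNA. The 3 groups overlapped, with control replicate 2 about as high as the highest SIN3A siRNA library. The log2 fold change was 0.32 ± 0.26 (SE, adjusted p 0.421) with SIN3A siRNA and -0.05 ± 0.27 (adjusted p 0.931) with SIN3B siRNA. The upper ends of the 95% intervals lay at 1.82 and 1.42 times the control level. The first depends on control replicate 2, without which the log2 fold change with SIN3A siRNA was 0.63 (adjusted p 0.139); without control replicate 1 it was 0.15 (0.79). Without control replicate 2 the value with SIN3B siRNA was 0.25 (adjusted p 0.619).

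IFIT3 (ENSG00000119917, 89327894 to 89340971) had 12, 12 and 16 counts in control, 4, 4 and 8 with SIN3A siRNA and 4, 8 and 4 with SIN3B siRNA. Only control replicate 3 exceeded the floor of 12 counts, so no fold is drawn from its values, although both knockdown groups lay under the controls by 1 to 3 steps of 4. The adjusted p was 0.292 with SIN3A siRNA and 0.262 with SIN3B siRNA in edgeR. In limma on log2 FPKM it was 0.0199 and 0.015 with a pseudocount of 1, and 0.0326 and 0.0237 with 0.1. That fit let the spread follow the mean log2 FPKM of a gene but did not use the counts behind each value. IFIT2 (ENSG00000119922, 89283694 to 89309276) had 12, 0 and 4 counts in control, 0, 0 and 4 with SIN3A siRNA and 0, 4 and 8 with SIN3B siRNA, and shares 65 exonic bases with LIPA on the opposite strand and 356 with AL353751.1 on its own strand. No library of IFIT2 exceeded the floor.

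ISG15 (ENSG00000187608, chromosome 1, 1001138 to 1014540, plus strand) encodes a ubiquitin-like protein that is coupled to other proteins after interferon. It was at 6.52, 6.11 and 7.90 CPM in control, 7.36, 4.70 and 4.23 CPM with SIN3A siRNA, and 6.43, 5.01 and 7.52 CPM with SIN3B siRNA. The groups overlapped, and the SIN3A siRNA group held both a library inside the control range and the lowest library of all. The log2 fold change was -0.34 ± 0.23 (SE, adjusted p 0.311) with SIN3A siRNA and -0.11 ± 0.22 (adjusted p 0.782) with SIN3B siRNA. The 95% intervals reached up to 1.1 and 1.28 times the control level. Leaving out 1 library moved the log2 fold change with SIN3A siRNA between -0.60 (without SIN3A siRNA replicate 1, adjusted p 0.0622) and -0.18 (without replicate 3, 0.653). MX1 (ENSG00000157601, chromosome 21, 41420304 to 41459214, plus strand), a GTPase that blocks viral replication, had at most 8 counts in a library: 4, 0 and 0 in control, 4, 0 and 4 with SIN3A siRNA, and 8, 4 and 4 with SIN3B siRNA. All 9 libraries of MX1 were under the floor.

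**Figure D3:**
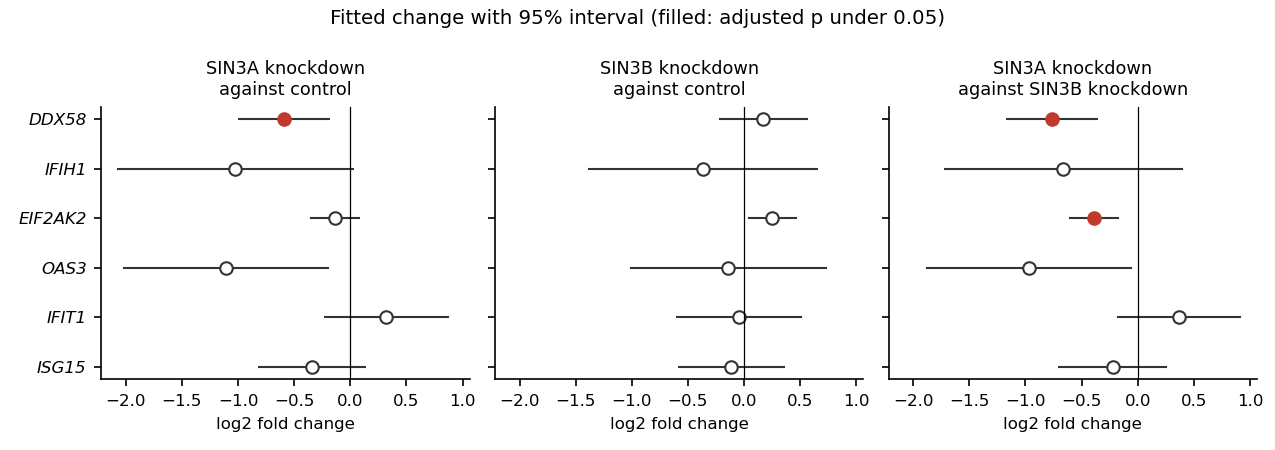
Log2 fold change (point) with its 95% interval (line) for the 6 members above the floor in most libraries, in the 3 comparisons; filled points have an adjusted p under 0.05. DDX58 is filled for SIN3A siRNA against control, DDX58 and EIF2AK2 are filled between the knockdowns, and no point is filled for SIN3B siRNA against control.

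Levels can be compared between genes only per length, here as CPM per kilobase of the exons in GENCODE 29. In control libraries ISG15 (7.27 ± 1.00, SD, n = 3) and EIF2AK2 (7.06 ± 0.567) stood highest, and their ranges overlapped. DDX58 followed at 1.64 ± 0.291 and IFIT1 at 0.832 ± 0.283, each apart from its neighbours in the order. IFIH1 (0.309 ± 0.0641), OAS3 (0.245 ± 0.0505) and IFIT3 (0.208 ± 0.0501) overlapped from one to the next. IFIT2 (0.053), MX1 (0.00615) and OAS1 (0) came last, all under the floor. Thus PKR, ISG15 and RIG-I transcripts were readily measured in cells that had received siRNA, IFIT1 transcripts were low, and those of the other IFIT, OAS and MX members were near or under the floor.

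Across the 9 libraries, the genes whose log2 levels moved most like DDX58 after centring were GPATCH4, with a root mean square distance of 0.126, and HMGN2, with 0.128, where DDX58 itself varied with an SD of 0.379. For EIF2AK2 they were MARCH6 (0.0496) and IRF2BP2 (0.066), against an SD of 0.225. GPATCH4 was at 151 ± 7.84 CPM in control, 111 ± 6.47 CPM with SIN3A siRNA and 189 ± 4.23 CPM with SIN3B siRNA. MARCH6 was at 128 ± 12.8, 119 ± 16.6 and 151 ± 3.39 CPM in the same groups. Both were picked for likeness to a member over these 9 libraries, so an order of groups shared with that member follows from the choice. HMGN2 has many near-identical copies in the genome, so its counts are uncertain. These are descriptions of the 9 libraries, which share their depth and group structure.

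An siRNA can also lower transcripts that match its seed, the bases near its 5′ end. The siRNA sequences are not given in the sources used here. An earlier scan of these data picked out 7-base sequences in 3′ UTRs because they went with lower levels: GGTCTAA and AGGTCTA with SIN3A siRNA, ACAGCCT and CAGCCTT with SIN3B siRNA. Whether they are seed matches was not tested. Of 13390 tested genes with an annotated 3′ UTR, 9.48% held either SIN3A sequence and 30.3% either SIN3B sequence. Among the members 0 of 10 held a SIN3A sequence, and 3 of 10, IFIT1, OAS1 and OAS3, held a SIN3B sequence. Nothing is drawn from this about any member.

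The wider pathway was described with a list of 142 genes in 8 roles, the members included, of which 93 were tested. With SIN3A siRNA 13 rose and 8 fell, with SIN3B siRNA 6 rose and 9 fell, and between the knockdowns 17 were higher and 12 lower with SIN3A siRNA. The share of tested list genes called in either direction was 22.6%, 16.1% and 31.2% in that order, beside 23.0%, 23.6% and 27.1% of all genes tested. Nothing particular to the list is read from these shares. The median log2 fold changes were -0.04, -0.08 and 0.00465, beside -0.00155, -0.0153 and -0.0201 over all genes tested. Leaving out control replicate 2 lowered the SIN3A siRNA count from 21 to 13, and the SIN3B siRNA count of 15 became 9 without that library, 7 without SIN3B siRNA replicate 2 and 8 without replicate 3. The 2 comparisons with control share their control libraries.

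**Figure D4:**
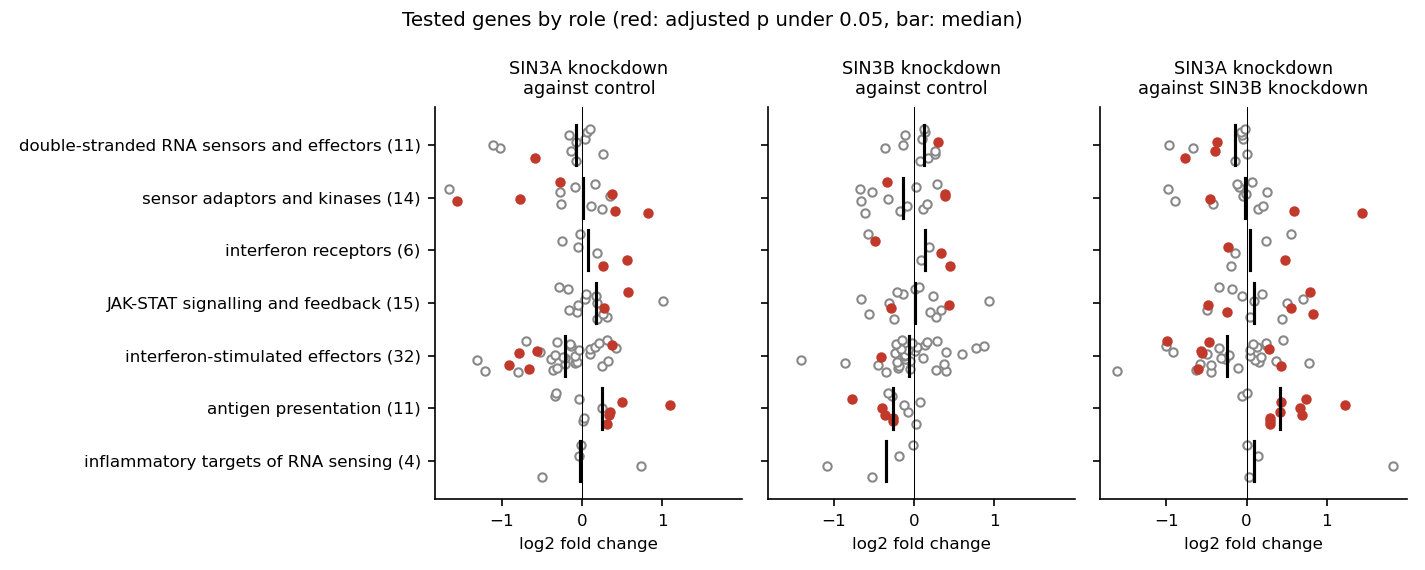
Log2 fold change of each tested gene of the wider list by role (1 point per gene, number tested in brackets, black bar the median, red an adjusted p under 0.05) in the 3 comparisons. Antigen presentation genes lie to the right between the knockdowns, where 9 of 11 are red, and the interferon ligands are absent because 0 of 10 could be tested.

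No interferon gene on the list passed the floor in any library. IFNA genes other than IFNA1 and IFNA2 were not on the list. Of 10 ligand genes, 9 had 0 counts in all 9 libraries, IFNB1, IFNL1, IFNL2, IFNL3 and IFNG among them, which with the floor of 12 counts allows up to 0.442 to 0.552 CPM in a library. The exception, IFNE, had 20 counts in all and at most 8 in a library. Of 13 inflammatory genes that RNA sensing can induce, 4 were tested, and 0 were called in any comparison by edgeR or DESeq2. At an unadjusted p under 0.05 the number was also 0, and limma called 1 higher between the knockdowns. Over all genes tested edgeR called 23.0% with SIN3A siRNA, 23.6% with SIN3B siRNA and 27.1% between the knockdowns. With 4 genes tested, nothing is read from the difference to these shares. CXCL10, a chemokine induced by interferon, had 0 counts in all libraries.

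Among 18 double-stranded RNA sensors and effectors, 11 were tested. With SIN3A siRNA DDX58 alone was called (9.09%, beside 23.0% of all genes tested). With SIN3B siRNA the share was also 9.09%, beside 23.6% of all genes tested. The gene called there was PRKRA, the activator protein of PKR, which rose by 0.30 ± 0.10 log2 units (SE, adjusted p 0.0299). That call did not hold without control replicate 2 or 3 or without any 1 of the SIN3B siRNA replicates (0.20 to 0.32, adjusted p 0.066 to 0.206), with upper-quartile factors (0.26, 0.0584) or in limma (0.0683 to 0.0684), and the value became -0.07 with the GC and length offsets. Between the knockdowns DDX58, EIF2AK2 and PRKRA (-0.37 ± 0.10, adjusted p 0.00695) were lower with SIN3A siRNA, 3 of 11 tested genes, where 12.6% of all genes were lower. The share called in either direction there was 27.3%, beside 27.1% of all genes tested. The EIF2AK2 and PRKRA transcripts were both lower there, and whether their changes are linked was not tested. The same offsets took the PRKRA call away (-0.21, adjusted p 0.081).

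Of 16 adaptors and kinases downstream of the sensors, 14 were tested. With SIN3A siRNA IRF3, the transcription factor that starts interferon transcription, rose from 86.2 ± 3.37 to 115 ± 9.31 CPM (0.41 ± 0.08 log2 units, SE, adjusted p 8e-04), together with TBK1 and IKBKE, the kinases that phosphorylate it. TBK1 rose by 0.37 ± 0.10 (adjusted p 0.0122), which was lost without control replicate 2 or 3 (0.34 to 0.35, adjusted p 0.0558 to 0.0573) and with the GC and length offsets (0.21, 0.0768). IKBKE rose by 0.82 ± 0.28 (adjusted p 0.0394), which was lost without control replicate 1 or 2 or SIN3A siRNA replicate 1 or 2 (0.57 to 0.90, adjusted p 0.0709 to 0.184), in DESeq2 (0.83, 0.0512), with upper-quartile factors (0.76, 0.0593) and in limma with a pseudocount of 0.1 (0.82, 0.0692). RNF135, a ubiquitin ligase that activates RIG-I, fell from 13.1 ± 1.01 to 7.64 ± 1.2 CPM (-0.78 ± 0.16, adjusted p 0.00164). TRIM25, another ligase of the RIG-I pathway, fell by 0.28 (-0.28 ± 0.09, adjusted p 0.0331), which was lost without control replicate 2 or 3 or SIN3A siRNA replicate 1 or 2 (-0.28 to -0.20, adjusted p 0.0551 to 0.152), in the fit of 6 libraries (-0.28, 0.0554), with the replicate block (-0.28, 0.0513) and in limma with a pseudocount of 0.1 (-0.27, 0.0509). The IRF3 and RNF135 calls held in all 21 alternatives.

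With SIN3A siRNA NLRC5, an NLR family activator of class I antigen presentation genes, went from 2.27 ± 0.609 to 0.767 ± 0.0272 CPM (-1.56 ± 0.40, adjusted p 0.00754). The second level is near the floor of 0.442 to 0.552 CPM, and the call was lost without control replicate 2 (-1.32, adjusted p 0.0542). With SIN3B siRNA TBK1 (0.38 ± 0.10, adjusted p 0.00964) and TANK (0.39 ± 0.13, 0.0284) rose and TRIM25 (-0.34 ± 0.09, 0.00968) fell. None of these 3 calls held without control replicate 2 or without SIN3B siRNA replicate 2. Over the single libraries whose removal lost the call, TBK1 lay at 0.29 to 0.35 (control replicates 2 and 3 and SIN3B siRNA replicate 2, adjusted p 0.0527 to 0.0909) and TANK at 0.35 to 0.41 (control replicates 2 and 3 and each SIN3B siRNA replicate, 0.0508 to 0.113). TRIM25 lay at -0.32 to -0.30 (control replicate 2 and SIN3B siRNA replicates 2 and 3, adjusted p 0.0517 to 0.0585). With the GC and length offsets TBK1 was at 0.08 (adjusted p 0.564) and TANK at 0.04 (0.868), and limma did not call TANK (adjusted p 0.0562 to 0.059). Between the knockdowns IRF3 (0.59 ± 0.08, adjusted p 1.1e-05) and IKBKE (1.44 ± 0.29, 0.00084) were higher with SIN3A siRNA and RNF135 (-0.45 ± 0.16, 0.0408) lower. The last call was lost in 13 of 21 alternatives, among them without any 1 control library, SIN3A siRNA replicate 2 or 3 or SIN3B siRNA replicate 1 or 3 (-0.46 to -0.34, adjusted p 0.0509 to 0.149), with the replicate block (-0.46, 0.0597) and in DESeq2 (-0.45, 0.0543).

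All 6 interferon receptor genes were tested. IFNAR2, a chain of the type I receptor, rose from 11.2 ± 1.13 to 16.6 ± 1.71 CPM with SIN3A siRNA (0.56 ± 0.14 log2 units, SE, adjusted p 0.00769), and its partner IFNAR1 rose by 0.26 ± 0.08 (0.0278), which was lost without control replicate 2 or 3 or SIN3A siRNA replicate 3 (0.23 to 0.26, adjusted p 0.0685 to 0.106), with upper-quartile factors (0.19, 0.105), in the fit of 6 libraries (0.26, 0.0625) and with the offsets (0.20, 0.0583). With SIN3B siRNA IFNAR1 rose from 55.8 ± 2.33 to 76.2 ± 3.23 CPM (0.45 ± 0.08, adjusted p 0.00051). The gamma receptor chain IFNGR1 rose by 0.34 ± 0.09 (0.00768) and the lambda receptor chain IFNLR1 fell by 0.49 (-0.49 ± 0.13, 0.0102). IFNGR1 was not called in limma (adjusted p 0.0958 to 0.114) or with the GC and length offsets (0.09, adjusted p 0.474), and IFNLR1 was not called in limma (-0.31, adjusted p 0.0585, with a pseudocount of 1) or without SIN3B siRNA replicate 2 (-0.40, adjusted p 0.0723). Between the knockdowns IFNAR2 was higher with SIN3A siRNA (0.48 ± 0.14, adjusted p 0.0159) and IFNGR2 lower (-0.24 ± 0.08, 0.0403). The IFNAR2 difference was lost without SIN3A siRNA replicate 2 (0.40, adjusted p 0.0741) or SIN3B siRNA replicate 2 (0.41, 0.0833), and that of IFNGR2 without any 1 library other than SIN3A siRNA replicates 1 and 3 (-0.25 to -0.18, adjusted p 0.0517 to 0.157) and in the fit of 6 libraries (-0.23, 0.0684).

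In the JAK-STAT group all 15 genes were tested. STAT3 rose from 72.9 ± 1.36 to 109 ± 8.64 CPM with SIN3A siRNA (0.58 ± 0.08 log2 units, SE, adjusted p 2.9e-05) and was also higher than with SIN3B siRNA (0.79 ± 0.08, adjusted p 2.9e-07), in all 21 alternatives. PIAS1, an inhibitor of STAT signalling, rose with SIN3A siRNA (0.27 ± 0.08, adjusted p 0.0205), fell with SIN3B siRNA (-0.28 ± 0.08, 0.0152) and differed between the knockdowns (0.56 ± 0.08, 4e-05). The rise was lost without control replicate 2 or 3 (both 0.25, adjusted p 0.0849 and 0.0854) and the fall without control replicate 1 (-0.23, 0.0986) or SIN3B siRNA replicate 1 (-0.26, 0.0534). The rise was also lost with the GC and length offsets (0.17, adjusted p 0.0964) and upper-quartile factors (0.20, 0.0818), and limma called neither (adjusted p 0.133 to 0.148), while the difference between the knockdowns held in all 21 alternatives. With SIN3B siRNA PTPN2, a phosphatase that switches JAK signalling off, rose by 0.43 ± 0.13 (adjusted p 0.023), which was lost without control replicate 3 or SIN3B siRNA replicate 2 or 3 (0.32 to 0.40, adjusted p 0.0928 to 0.146). The PTPN2 rise was 0.17 (adjusted p 0.404) with the GC and length offsets and was not called in limma (0.0813 to 0.0822). JAK1, a kinase used by all interferon receptors, was lower with SIN3A than with SIN3B siRNA (-0.25 ± 0.07, adjusted p 0.0109), a call lost in limma with a pseudocount of 1 (-0.24, 0.0504). STAT2 and IRF9, which take part in binding the response element, were picked out after their values were seen. STAT2 had log2 fold changes of 0.06 ± 0.09 (adjusted p 0.729) with SIN3A siRNA and -0.13 ± 0.10 (0.355) with SIN3B siRNA. IRF9 had 0.26 ± 0.26 (0.519) and -0.56 ± 0.27 (0.149), and was higher with SIN3A than with SIN3B siRNA (0.82 ± 0.27, 0.0261), which was lost without SIN3A siRNA replicate 2 or 3 or any 1 SIN3B siRNA replicate (0.67 to 0.84, adjusted p 0.0653 to 0.107) and in limma (0.36, adjusted p 0.0632, with a pseudocount of 1).

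Of 50 interferon-stimulated effector genes, 32 were tested, and 31 of the 42 with a promoter window held the response element (73.8%). With SIN3A siRNA 1 rose and 4 fell, beside 12.2% and 10.8% of all genes, with a median log2 fold change of -0.21. LGALS3BP, a secreted glycoprotein, fell from 24.6 ± 1.16 to 14.3 ± 0.777 CPM (-0.78 ± 0.13, SE, adjusted p 0.00024). HERC6, a ubiquitin ligase of the HERC family, fell from 6.76 ± 0.512 to 3.60 ± 0.473 CPM (-0.91 ± 0.21, adjusted p 0.00451). DTX3L and PARP9, which form a ubiquitin ligase and ADP-ribosyltransferase pair and lie side by side in the genome, were at -0.66 ± 0.19 (0.0166) and -0.56 ± 0.17 (0.0218), in that order. DTX3L was not called without control replicate 1 or 3 or SIN3A siRNA replicate 1 (-0.64 to -0.48, adjusted p 0.0564 to 0.0754), and PARP9 not without control replicate 1 or 2 or SIN3A siRNA replicate 3 (-0.56 to -0.51, adjusted p 0.0502 to 0.0795). The single rise was that of TDRD7 (0.37 ± 0.12, adjusted p 0.0308), lost without control replicate 1 or 3 or SIN3A siRNA replicate 2 or 3 (0.31 to 0.38, adjusted p 0.0522 to 0.13) and with upper-quartile factors (0.30, 0.0811).

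With SIN3B siRNA 0 of the 32 effectors rose and 1 fell (3.12% called, beside 23.6% of all genes tested). The 1 that fell was IFITM2 (-0.41 ± 0.12, adjusted p 0.0132), which restricts virus entry. At an unadjusted p under 0.05 edgeR gave 1 and 4. DESeq2 gave 0 and 1, and limma on log2 FPKM with a pseudocount of 1 gave 1 and 2. IFITM2 lost its call without control replicate 2 (-0.35, 0.0764) or SIN3B siRNA replicate 3 (-0.31, 0.0995), and it has close relatives between which reads can be split. Between the knockdowns 2 were higher with SIN3A siRNA and 5 were lower (21.9% called, beside 27.1% of all genes tested). The 2 included HERC5, the ligase that attaches ISG15 to proteins (0.43 ± 0.12, adjusted p 0.0102). The 5 included LGALS3BP (-0.55 ± 0.13, adjusted p 0.00325) and UBA7, the activating enzyme for ISG15 (-0.99 ± 0.29, 0.0139). The UBA7 call was lost without SIN3B siRNA replicate 2 (-0.81, adjusted p 0.0892).

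Among antigen presentation genes every call with SIN3A siRNA was a rise and every call with SIN3B siRNA a fall. Of 14 genes 11 were tested: with SIN3A siRNA 5 rose and 0 fell (median log2 fold change 0.26), with SIN3B siRNA 0 rose and 5 fell (median -0.27), and 9 were higher with SIN3A than with SIN3B siRNA and 0 lower (median 0.42). Over all genes tested 12.2% rose and 10.8% fell with SIN3A siRNA, 12.0% rose and 11.6% fell with SIN3B siRNA, and 14.5% were higher and 12.6% lower between the knockdowns. DESeq2 gave the same counts, and at an unadjusted p under 0.05 edgeR gave 5 and 1, 0 and 5, and 9 and 0. In this role 9 of the 12 genes with a promoter window held the response element (75.0%). PSME1, a subunit of an activator of the proteasome, rose from 41.3 ± 1.92 to 88.7 ± 11.5 CPM with SIN3A siRNA (1.10 ± 0.10, SE, adjusted p 1.7e-07) and was at 37.8 ± 1.97 CPM with SIN3B siRNA (-0.13 ± 0.10, 0.399). Its partner PSME2 rose from 57.0 ± 3.34 to 80.6 ± 11.0 CPM (0.50 ± 0.10, 0.00093), although PSME2 has pseudogene copies that could take some of its reads. B2M, the light chain shared by the class I molecules, rose by 0.31 ± 0.07 (0.00354), HLA-E by 0.34 ± 0.08 (0.00308) and HLA-C by 0.33 ± 0.08 (0.00604). TAP1, a chain of the peptide transporter, fell from 20.4 ± 0.801 to 11.9 ± 0.902 CPM with SIN3B siRNA (-0.78 ± 0.12, adjusted p 0.00012) and was at 19.9 ± 0.766 CPM with SIN3A siRNA. Between the knockdowns PSME1 was higher by 1.23 ± 0.10 (adjusted p 1.3e-08) and TAP1 by 0.74 ± 0.12 (0.00011) with SIN3A siRNA.

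**Figure D5:**
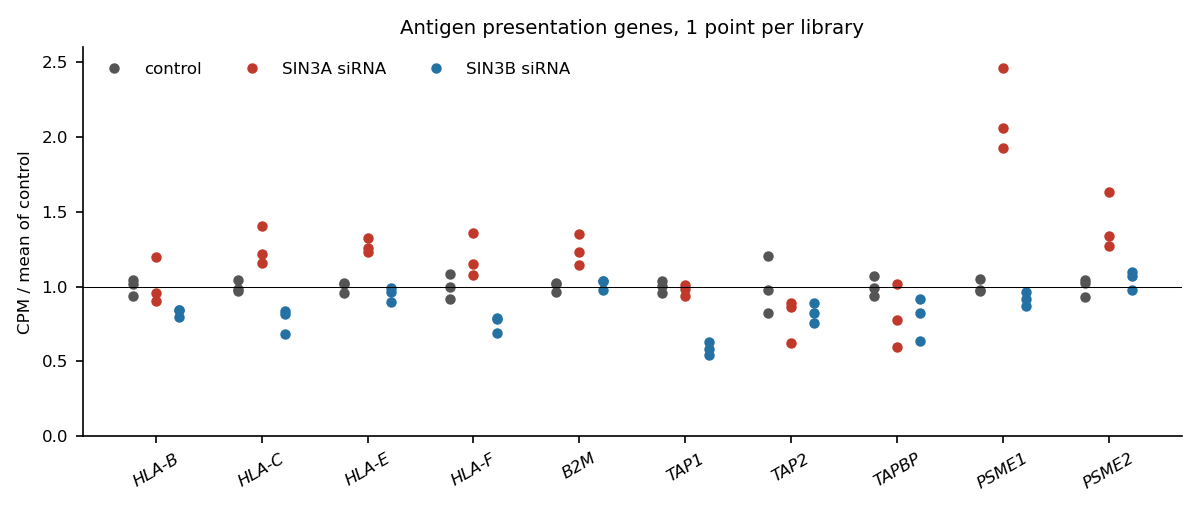
Level of 10 of the 11 tested antigen presentation genes relative to the mean of the control libraries (CPM divided by control mean, linear axis, 1 point per library, n = 3 per group). PSME1 and PSME2 are above every control in all 3 SIN3A siRNA libraries, and TAP1 is under every control in all 3 SIN3B siRNA libraries.

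Class I heavy chain genes were among those that fell with SIN3B siRNA: HLA-C went from 286 ± 11.8 to 223 ± 23.9 CPM (-0.36 ± 0.08 log2 units, SE, adjusted p 0.00315), HLA-B was at -0.27 ± 0.09 (0.0287) and HLA-F at -0.41 ± 0.13 (0.0231). These genes are close relatives, so reads may have been divided between them. HLA-C was the gene that passed the threshold both ways, up with SIN3A siRNA and down with SIN3B siRNA, and it differed between the knockdowns by 0.69 ± 0.08 (adjusted p 3.3e-06). The 5 rises with SIN3A siRNA stood in every alternative, with 1 fall beside them without SIN3A siRNA replicate 2. The TAP1 and HLA-C falls held in all 21 alternatives. HLA-B was not called without control replicate 1 or 2 or SIN3B siRNA replicate 2 or 3 (-0.28 to -0.24, adjusted p 0.0756 to 0.127), and HLA-F not without control replicate 1 or 2 or SIN3B siRNA replicate 2 (-0.42 to -0.34, 0.0535 to 0.121). With the GC and length offsets HLA-B was at -0.14 (adjusted p 0.224) and HLA-F at -0.28 (0.113), and limma did not call HLA-B (0.0994 to 0.101). The 5 falls with SIN3B siRNA were 3 without control replicate 1, control replicate 2, SIN3B siRNA replicate 2 or SIN3B siRNA replicate 3, and 3 with the GC and length offsets, and the 9 differences between the knockdowns were 7 with these offsets. NLRC5, named above, was at -1.56 ± 0.40 with SIN3A siRNA, in the opposite direction to the class I genes that rose, but at a level near the floor.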

How the data were processed

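Read counts per Ensembl gene were deposited by the authors for all 9 libraries; per the submitters' processing notes they used Trimmomatic 0.36, HISAT2 2.1.0, HTSeq, DESeq2 1.20.0 and GRCh38. A table of FPKM values was deposited by the authors for the same genes and libraries. The length that the FPKM values imply was unrelated to exon length (Spearman rho 0.0074 across 7870 genes, which are not independent replicates), and FPKM was compared only within a gene. Whether counting used strand is not given in the sources used here. Sample titles gave the groups, since the treatment labels name the control siRNA for all samples.

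The counts were fitted with edgeR 4.0.16 under R 4.3.3, using TMM factors, filterByExpr (minimum count 10, total 15) and the two-sided quasi-likelihood test with a robust prior, in 1 fit of 9 libraries with 6 residual degrees of freedom; 16686 genes were tested and 31909 had no count. P-values were adjusted by Benjamini-Hochberg over all genes tested, with a threshold of 0.05. The script was run on simulated counts with the same spread setting for every gene and group and without the step of 4. That run does not cover the unequal spread of the groups or the step. The 21 alternatives were RLE and upper-quartile factors, no filter and a stricter filter, counts divided by 4, DESeq2 1.42.0, limma 3.58.1 on log2 FPKM with pseudocounts of 1 and 0.1, the 6 libraries compared, a replicate block, leaving out each library, and, chosen after seeing the data, offsets for GC content and exon length and no robust prior. The members and lists were chosen with earlier results of these data known. Besides the members, the list genes named were the 3 called genes with the lowest adjusted p in each role and comparison; others were named after their values were seen. Promoters were from RefSeq (GRCh38.p14), gene positions and 3′ UTRs from GENCODE 29. All 142 list genes were matched by identifier. Figures were drawn with matplotlib 3.10.9. Values of some list genes are not reported here.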

Additional observations from a re-analysis of the deposited data

How the results depend on the processing

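Of the 7 tested members, the number called with SIN3A siRNA against control moved from 1 to 2 with the stricter filter (OAS3 added), with limma at either pseudocount (IFIT3 added) and with the GC and length offsets (EIF2AK2 added). It was 0 in the fit of 6 libraries, and 0 or 1 when 1 library was left out. Without SIN3A siRNA replicate 2 the 1 called was OAS3 (adjusted p 0.0297), and without replicate 3 it was EIF2AK2 (0.0292). DDX58 was not called in these 2 fits (0.0954 and 0.0769). With SIN3B siRNA the number called moved from 0 to 1 with no filter and in the fit of 6 libraries (EIF2AK2), and with limma at either pseudocount (IFIT3). It lay between 0 and 1 when 1 library was left out, and the 1 called was EIF2AK2. Between the knockdowns it was 2 or 3 in every alternative. The wider list gave 13 to 21 calls with SIN3A siRNA and 7 to 19 with SIN3B siRNA over the fits that left out 1 library. Log2 fold changes with SIN3B siRNA that changed sign, none of them called, were those of DDX58 (-0.0599), EIF2AK2 (-0.0863) and ISG15 (0.00025) with the GC and length offsets. Leaving out 1 library gave OAS3 -0.435 to 0.0655, IFIT1 -0.224 to 0.252 and ISG15 -0.257 to 0.0295 against control. The fitted value for IFIT3 between the knockdowns ran from -0.253 to 0.469 and is no measure of a fold, since all 6 libraries lay under the floor. The causes of these moves were not tested.

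Upper-quartile factors shifted the split of all calls from 2029 rises and 1807 falls to 1352 and 2313 with SIN3A siRNA, and from 2001 and 1938 to 1693 and 2286 with SIN3B siRNA; the offsets gave 1391 and 2174 for the latter. IFIH1 and IFIT3 had no value under the stricter filter, IFIT3 none in the fit of 6 libraries between the knockdowns, and DESeq2 gave it no adjusted p. Libraries with the same replicate number did not deviate together (r from -0.0265 to 0.036 over 9 pairs). With the replicate number as a block, 3478, 3654 and 4239 genes were called in place of 3836, 3939 and 4527, no member changed its call, the TRIM25 call with SIN3A siRNA and the RNF135 call between the knockdowns were lost, and DDX58 with SIN3A siRNA was at -0.58 (adjusted p 0.0483). Where a leave-out left a group with 2 libraries, the fit shared its spread with the other groups. Counts of 12 or fewer, in steps of 4, limit what can be said of IFIT2, IFIT3, MX1 and OAS1.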
